A study of Mus musculus with 6 samples.

Results

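The genotype difference that mouse heart and skeletal muscle have in common after loss of miR-214 was measured over all 6 arrays of the study. In each of 3 settings, a miR-214 knockout (KO) array was set against a wild-type (WT) array: heart at postnatal day 14 (P14), heart at 8 weeks (adult heart), and tibialis anterior at 8 weeks. The tibialis anterior is a fast-twitch muscle at the front of the lower leg. A probe entered when its detection p-value was under 0.01 on at least 2 arrays, which left 18585 of 45281 probes. Of these, 15988 carry 1 gene symbol, and together they stand for 10281 genes.

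The KO mice are labelled miR-214 KO and the WT mice wildtype, all male and on a mixed strain background, and 3 mice were pooled for each array. The labels name no promoter, Cre line or allele design. Each group has 1 array, so the settings take the place of replicates. A p-value over them sets the mean KO minus WT difference against its variation between settings, array noise included. That variation is estimated partly over all tested probes. KO and WT arrays alternate in the letters of their array names, which share 1 number in the labels. Genotype and the position that the letters may stand for cannot be told apart. Every difference is given as KO minus WT of the normalized log2 intensities, and values of 3 arrays are given in the order P14 heart, adult heart, tibialis anterior.

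A microRNA guides a silencing complex to messenger RNAs that pair with its seed, near its 5′ end, and lowers their translation or stability. miR-214 is processed from Dnm3os, a long noncoding RNA on the strand opposite to the Dnm3 gene, and in mouse heart it is known for genes of calcium handling and cell death. The mature sequences of the deleted locus are printed from RefSeq (GRCm38.p6) to show what the KO animals lack, with the seed, bases 2 to 8, in capitals. The miR-214-3p arm lies at chr1:162223438-162223459 on the plus strand and the miR-214-5p arm at chr1:162223397-162223418 on the plus strand. Another locus, at chr4:109017669-109017690 on the plus strand, encodes miR-761, which has the same seed as miR-214-3p and is not part of the deletion named in the labels. The search for loci with these seeds left out matches on a further chromosome, so it may not be complete.
miR-214-3p: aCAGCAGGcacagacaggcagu
miR-761: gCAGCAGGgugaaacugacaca
miR-214-5p: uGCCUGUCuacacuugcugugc

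The array has 0 probes that name miR-214, and so gives no check of the genotype labels. The host RNA Dnm3os was detected on all 6 arrays, at 6.35, 5.89 and 6.24 in KO and 6.44, 6.14 and 6.48 in WT. Its difference was -0.19 (SE 0.16, n = 3 settings, adjusted p = 0.68, limma), and its second probe gave -0.08. Dnm3 was detected on 0 arrays. The sex label could be read against the data: Xist, the RNA that coats the inactive X chromosome of females, was detected on all 6 arrays at 9.62 to 10.65, and the Y-linked Eif2s3y, Kdm5d and Uty were detected on the P14 WT array only. On each array the Xist signal goes against the label of male animals, and the part of sex in the differences was not tested. Between 32.9% and 39.7% of probes were detected per array, each read on a median of 43 or 44 beads.

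Over the 3 settings, 12 probes, 0.0646% of those tested, differed between KO and WT at an adjusted p under 0.05. Of these, 10 were lower in KO (0.0538% of probes) and 2 were higher (0.0108%). At an unadjusted p under 0.05, 813 probes (4.37%) were lower and 1001 (5.39%) were higher, while the median difference of all tested probes was -0.02. All 10 lower genes lie on chromosome 1, the chromosome of miR-214, and the 2 higher genes, Angptl4 and Mt1, lie on chromosomes 17 and 8. With 3 pairs, an exact sign-flip test of a single probe cannot go below p = 0.25, so the calls rest on the spread that limma estimates over all probes. The number of calls moved with the pairs that entered, from 5 without the adult heart pair to 20 without the tibialis anterior pair and 58 without the P14 heart pair, each of these with 1 residual degree of freedom.

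**Figure D1:**
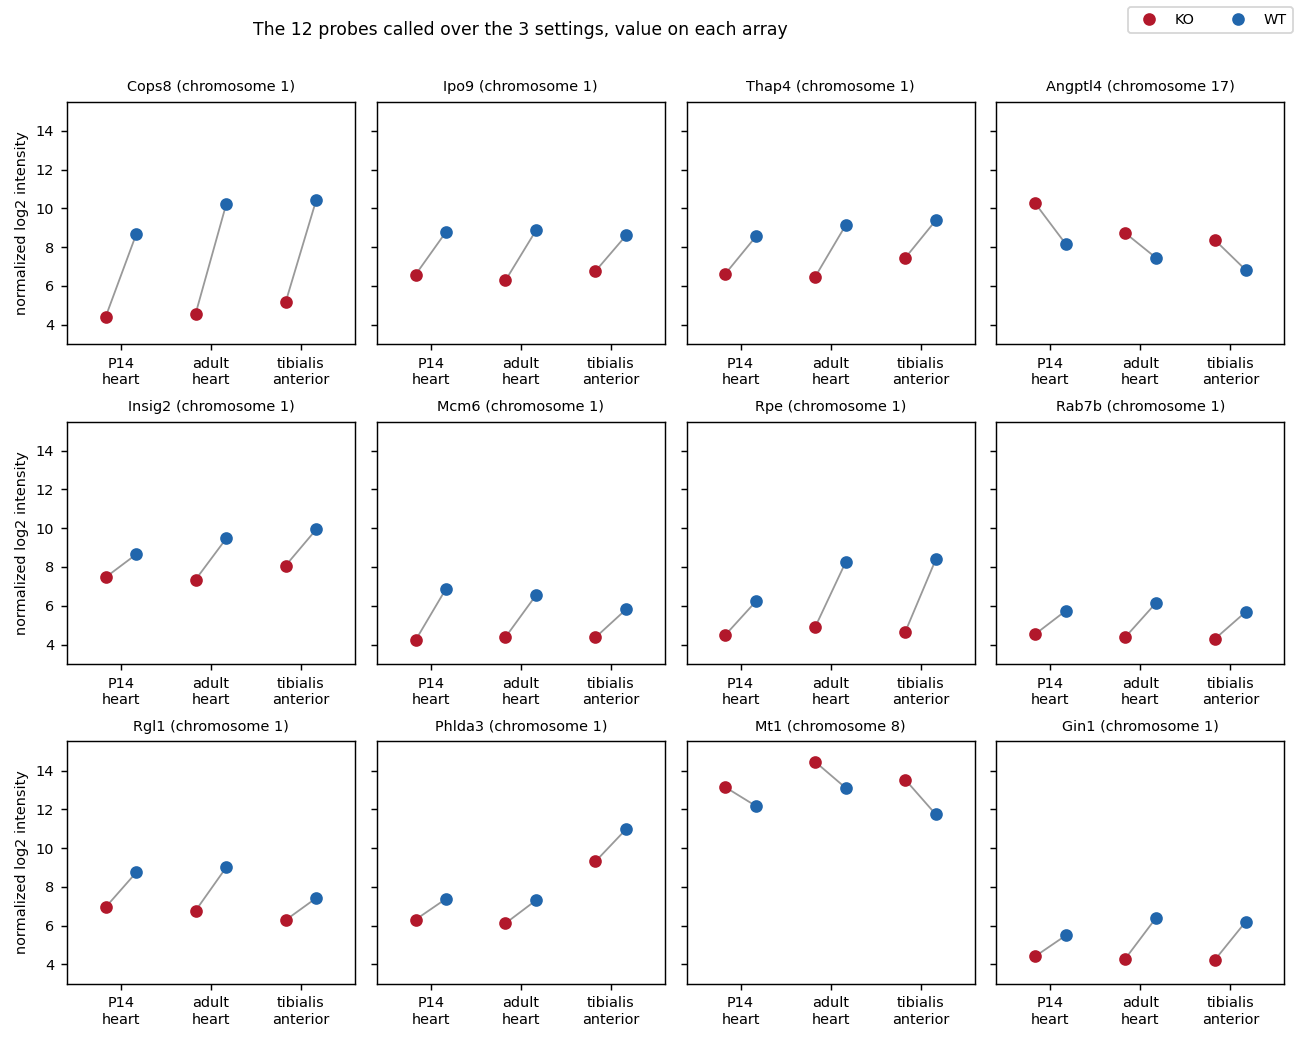
Normalized log2 intensity (vertical axis) of the 12 called probes on each of the 6 arrays, with KO (red) left of WT (blue) in each setting and a grey line joining the 2 arrays of a pair. Every KO point of the 10 genes on chromosome 1 lies below its WT partner, and every KO point of Angptl4 and Mt1 lies above its partner.

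Cops8 encodes a subunit of the COP9 signalosome, a complex that removes the ubiquitin-like protein NEDD8 from ubiquitin ligases. Its only probe read 4.41, 4.57 and 5.16 on the KO arrays and 8.67, 10.22 and 10.43 on the WT arrays. The KO arrays did not register it above background, and the groups did not overlap. With a mean of 4.71 in KO and 9.78 in WT, it was at least 27.4-fold lower in KO (fitted difference -5.06, SE 0.24, adjusted p = 0.00016, limma). Of the 9 signalosome genes tested, Cops8 was the 1 called. The other 8 had differences of -0.17 (Cops2) to 0.15 (Cops6), the catalytic subunit gene Cops5 among them at -0.01 (SE 0.12).

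Ipo9 encodes an importin that carries ribosomal proteins, histones and actin into the nucleus. It read 6.58, 6.28 and 6.76 on the KO arrays and 8.79, 8.87 and 8.60 on the WT arrays, and was detected on all of them. No KO value came near a WT value, and the fitted level was 4.64-fold lower in KO (-2.22, SE 0.17, adjusted p = 0.0043). Of 20 importin, exportin and Ran genes tested, Ipo9 was the 1 called, with a list median of -0.12 beside -0.01 for all tested genes. Kpna2, an importin alpha gene, had the next smallest p (-0.70, SE 0.20, adjusted p = 0.48), with -1.04, -0.89 and -0.15 in the 3 settings and both tibialis anterior values below detection.

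Thap4 encodes a protein with a DNA-binding THAP zinc finger. The KO arrays gave 6.63, 6.48 and 7.45 and the WT arrays 8.55, 9.15 and 9.39, again with a gap between the groups. Thap4 was 4.53-fold lower in KO (-2.18, SE 0.17, adjusted p = 0.0043). Of 6 THAP genes tested, it was the 1 called, and Thap3 had the next smallest p at 0.51 (SE 0.17, adjusted p = 0.50).

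Rpe and Insig2 are the metabolic genes of the group. Rpe encodes ribulose-5-phosphate epimerase of the nonoxidative pentose phosphate pathway. It was not detected in KO, at 4.49, 4.91 and 4.65, and stood at 6.23, 8.27 and 8.40 in WT. The means of 4.69 in KO and 7.63 in WT give a bound of at least 6.20-fold lower in KO (-2.95, SE 0.33, adjusted p = 0.029). The WT arrays carry most of the variation between settings, since the P14 heart value lies well below the adult ones while the KO values are all near background. The other 7 tested genes of the pathway were not called, with Prps2, a ribose-phosphate pyrophosphokinase gene, next by p (-0.52, SE 0.18, adjusted p = 0.50). Insig2 encodes an endoplasmic reticulum protein that holds back the processing of the sterol regulator SREBP. Its called probe read 7.47, 7.35 and 8.07 in KO and 8.65, 9.47 and 9.94 in WT (-1.72, SE 0.18, adjusted p = 0.024).

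Rgl1, Rab7b and Phlda3 act in signalling and membrane traffic. Rgl1 encodes an exchange factor for the small GTPase Ral, and stood at 6.95, 6.77 and 6.28 in KO and 8.74, 9.003 and 7.42 in WT. That is 3.30-fold lower in KO (-1.72, SE 0.20, adjusted p = 0.029), and it was the 1 called of 9 Ral pathway genes tested. Rab7b, a Rab GTPase of late endosomes, was not detected in KO (4.53, 4.37 and 4.30) and was low but detected in WT (5.74, 6.13 and 5.68). The bound is at least 1.80-fold lower in KO, from means of 4.40 in KO and 5.85 in WT (-1.45, SE 0.17, adjusted p = 0.029). Phlda3, a p53 target whose protein competes with Akt for membrane lipids, read 6.30, 6.12 and 9.31 in KO and 7.38, 7.31 and 10.97 in WT. The tibialis anterior values of both genotypes lay above all heart values, and the difference had one sign in each setting (-1.31, SE 0.15, adjusted p = 0.029).

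Mcm6 encodes a subunit of the replicative helicase. Its called probe was not detected in KO (4.21, 4.38 and 4.37) and read 6.88, 6.55 and 5.81 in WT. The means were 4.32 in KO and 6.41 in WT, which makes it at least 2.66-fold lower in KO (-2.10, SE 0.23, adjusted p = 0.029). Among 20 cell cycle genes tested by their brightest probe, 0 were called and 1 (Mcm6) was lower at an unadjusted p under 0.05, so the other helicase and mitotic genes did not pass the test with it. Gin1, the last of the 10, was not detected in KO (4.41, 4.28 and 4.24) and read 5.49, 6.38 and 6.20 in WT. Its means of 4.31 in KO and 6.02 in WT give at least 2.03-fold lower in KO (-1.71, SE 0.22, adjusted p = 0.043).

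The array carries several probes for some of these genes, and they did not all move. Of the 10 lower genes, 5 have another tested probe, and for 3 of the 5 that probe lay within 0.3 of 0. The second Insig2 probe read 9.57, 9.41 and 9.90 in KO and 9.61, 9.63 and 10.01 in WT (-0.12, SE 0.12, adjusted p = 0.73). Phlda3 had a second probe at -0.27 (SE 0.13, adjusted p = 0.52), and Rab7b one at 0.09 (SE 0.16, adjusted p = 0.86) that was detected on all 6 arrays. For these 3 genes the difference thus belongs to 1 probe and not to every probe of the gene. The remaining Mcm6 probes were lower without being called, at -0.98 (SE 0.23, adjusted p = 0.39) and -1.05 (SE 0.28, adjusted p = 0.45), and the second Gin1 probe stood at -0.83 (SE 0.20, adjusted p = 0.41). Cops8, Thap4 and Mt1 have 1 probe on the array. Ipo9, Rpe, Rgl1 and Angptl4 have 2 each, of which 1 did not pass the detection filter.

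**Figure D2:**
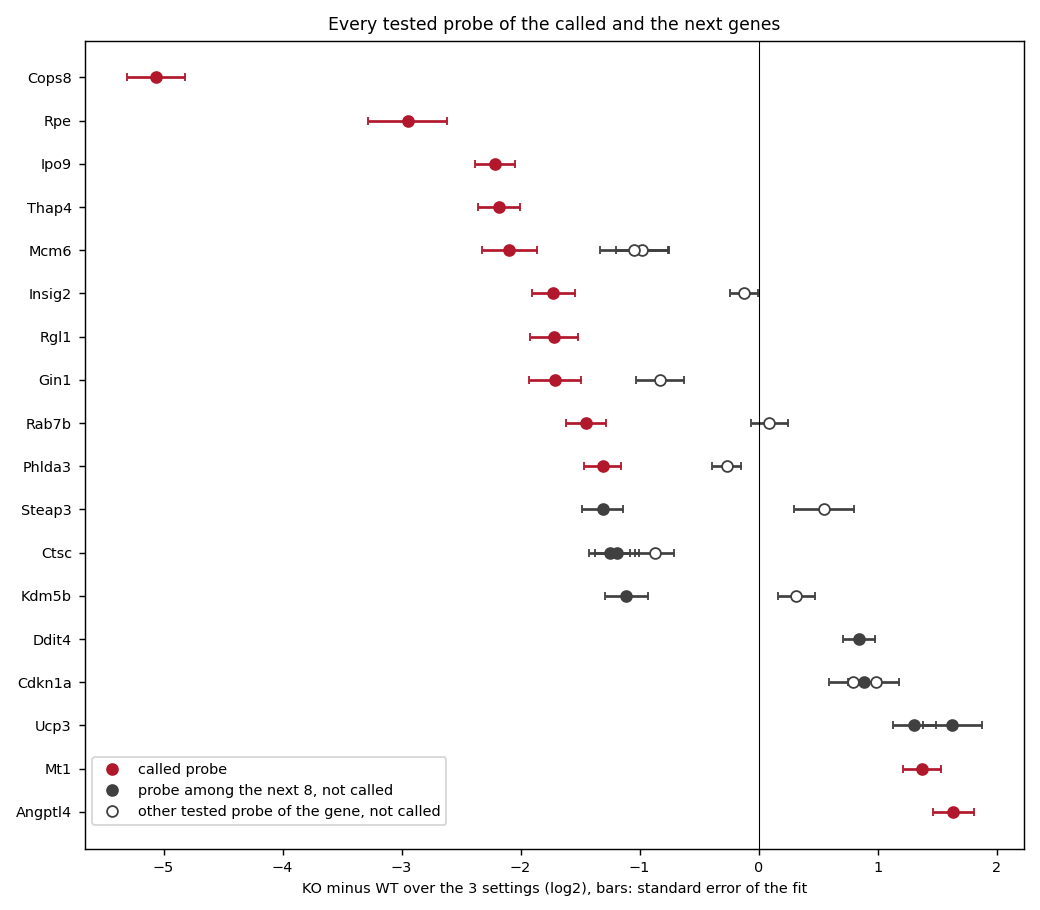
KO minus WT difference over the 3 settings (horizontal axis, log2) for every tested probe of the called genes and of the genes next by p, with the standard error of the fit as a bar. Red points are called probes, filled grey points the next probes by p with 1 gene symbol, and open points other probes of the same gene. The open points of Insig2, Rab7b and Phlda3 lie near 0, those of Steap3 and Kdm5b lie above 0 while their filled points lie below it, and the probes of Ctsc, Cdkn1a and Ucp3 lie together.

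In gene order, the 10 genes lie on the side of Dnm3 with lower coordinates. The nearest, Rgl1, is 73 protein-coding genes away and the farthest, Rpe, 556, on a chromosome with 1204. Chromosome 1 supplied 550 of the 10281 tested genes and 887 of the tested probes. How many of the 550 lie on that side of Dnm3 was not counted, so the side is given as a description only. Probes with a large difference in every setting were also counted. The 10 called lower probes, and the Steap3 probe next by p, are among them, so their chromosome is no separate result. There were 13 probes (0.0699%) at least 2-fold lower in KO in every setting, and 11 of the 12 with a known chromosome lie on chromosome 1, where 5.55% of all tested probes with a chromosome lie. At 1.5-fold in every setting there were 28 lower probes (0.151%), 13 of 24 on chromosome 1, and 19 higher probes (0.102%), 1 of 14 on chromosome 1. When a value below detection was replaced by the weakest signal that its array still detected, 10 probes (0.0538%) were past 2-fold lower and 1 (0.00538%) past 2-fold higher, and 23 (0.124%) were lower and 13 (0.0699%) higher past 1.5-fold. When the probes of chromosome 1 genes were left out of the test, 0 of 17698 probes were called by limma, with 1721 at an unadjusted p under 0.05 and a lowest adjusted p of 0.097. The calls of Angptl4 and Mt1 were thus lost too once the chromosome 1 probes left the adjustment.

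Angptl4 and Mt1 were the genes called higher in KO. Angptl4 encodes a secreted inhibitor of lipoprotein lipase that fasting, fatty acids and glucocorticoids induce. It read 10.26, 8.74 and 8.36 in KO and 8.16, 7.46 and 6.82 in WT. The groups did not overlap, the lowest KO value (8.36, tibialis anterior) being above the highest WT value (8.16, P14 heart), and within the settings KO was above WT by 2.10, 1.27 and 1.53. Angptl4 was 3.11-fold higher in KO (1.64, SE 0.17, adjusted p = 0.024), and it is the 1 probe (0.00538%) at least 2-fold higher in every setting. Mt1 encodes a metallothionein, a small cysteine-rich protein that binds zinc and copper and is induced by metals and glucocorticoids. It stood at 13.14, 14.44 and 13.52 in KO and 12.17, 13.09 and 11.73 in WT. Within the settings KO was above WT by 0.97, 1.35 and 1.79, and the fit gave 2.59-fold higher in KO (1.37, SE 0.16, adjusted p = 0.029). In neither gene did the difference in the tibialis anterior depart from that in the hearts at an adjusted p under 0.05 (-0.16, SE 0.36 for Angptl4 and 0.63, SE 0.27 for Mt1).

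Mt2, the neighbour of Mt1 with the same known inducers, was faint. Its probe read 4.36, 5.64 and 6.45 in KO and 4.30, 4.26 and 5.76 in WT (0.71, SE 0.24, adjusted p = 0.50). The zinc exporter gene Slc30a1, a further target of the metal-responsive factor MTF1, was at -0.27 (SE 0.16, adjusted p = 0.59). With Mt1 and Mt3, these make a list of 4 tested genes, 2 of them detected on all 6 arrays. The list median was 0.57, with 3 genes above 0 and 1 below 0 in every setting. At an unadjusted p under 0.05, 2 were higher, Mt1 among them, and 0 lower.

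Beyond the calls, the next 8 probes by p among those with 1 gene symbol stood for Steap3, Ctsc, Ucp3, Cdkn1a, Ddit4 and Kdm5b. Steap3, a metalloreductase gene of iron uptake on chromosome 1, just missed the threshold with 4.62, 4.96 and 5.32 in KO and 5.84, 6.55 and 6.43 in WT (-1.31, SE 0.17, adjusted p = 0.052). Its other probe went the opposite way, at 0.55 (SE 0.25), with 0.60, 1.25 and -0.20 in the 3 settings. Kdm5b, a histone H3 lysine 4 demethylase gene on chromosome 1, was split in the same manner, at -1.11 (SE 0.18, adjusted p = 0.15) and 0.32 (SE 0.16). The probes of Ctsc, Ucp3 and Cdkn1a, on chromosomes 7, 7 and 17, were not split in this way. Ctsc, the gene of the lysosomal protease cathepsin C, read 6.15, 6.96 and 7.53 in KO and 7.23, 8.64 and 8.53 in WT (-1.25, SE 0.17, adjusted p = 0.061), and its other probes gave -1.19 and -0.87. Ctsc had the smallest p of 10 cathepsin genes tested, ahead of Ctsb (-0.38, SE 0.13, adjusted p = 0.50), while the list median was 0.04.

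Ucp3 encodes a mitochondrial carrier that fatty acids and fasting induce in muscle. One probe read 8.33, 7.75 and 10.14 in KO and 6.67, 6.28 and 9.35 in WT (1.31, SE 0.18, adjusted p = 0.061). A second gave 7.63, 7.05 and 9.20 in KO and 5.31, 5.35 and 8.33 in WT (1.63, SE 0.25, adjusted p = 0.12). Both probes were thus above WT in each setting, with the smaller difference in the tibialis anterior, where the level was highest. Cdkn1a, the gene of the cell cycle inhibitor p21, had 3 probes at 0.79 to 0.99, the leading one at 0.89 (SE 0.14, adjusted p = 0.12). Ddit4, an inhibitor of mTOR signalling, read 9.98, 10.48 and 10.57 in KO and 9.01, 9.93 and 9.54 in WT (0.85, SE 0.13, adjusted p = 0.15). None of these passed the test.

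Among the probes 1.5-fold higher in KO in every setting, the 6 with the largest mean difference were 1 probe each of Apoa2 (1.80), Angptl4, Ucp3, Nudt6 (1.59), Mt1 and Mustn1 (1.33). Nudt6, whose transcript is antisense to Fgf2, read 7.27, 7.03 and 7.18 in KO and 6.59, 4.85 and 5.26 in WT (SE 0.27, adjusted p = 0.20), a level that was steady in KO and variable in WT. Fgf2 and Nudt6 overlap, and whether the probe separates them was not tested. Mustn1, a small nuclear protein gene of muscle repair, reached 2.50 in the tibialis anterior against 0.62 and 0.87 in the hearts (SE 0.30, adjusted p = 0.39). Apoa2, an apolipoprotein of liver, followed the liver markers given below (SE 0.38, adjusted p = 0.32). Its probe here was detected on 1 WT array. With values below detection raised to the weakest detected signal of their array, the P14 heart difference was 0.35, which is under 1.5-fold. The other Apoa2 probe gave 0.09 in P14 heart, 0.11 in adult heart and 3.31 in the tibialis anterior, so the heart part is uncertain.

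Among lists of related genes, each read by the brightest probe of a gene, none had a called member other than the genes above. Read this way, 6 genes (0.0584%) were called lower and 2 (0.0195%) higher. For orientation, 580 of all 10281 tested genes (5.64%) were higher and 419 (4.08%) lower in KO at an unadjusted p under 0.05. In all 3 settings alike, 1503 genes (14.6%) were above 0 and 1846 (18%) below. The genes induced by PPAR nuclear receptors, which respond to fatty acids, had a median of 0.24. At an unadjusted p under 0.05, 6 of 13 were higher and 0 lower, and in every setting 9 were above 0 and 2 below. The 6 higher were Angptl4, Ucp3, Pdk4, which restrains pyruvate oxidation (1.30, SE 0.25), the acyl-CoA thioesterase gene Acot1 (0.71, SE 0.14) and the lipid droplet genes Plin2 and Plin5. Pdk4 reached 0.83, 2.23 and 0.84 in the 3 settings, so it was past 1.5-fold higher in each and largest in adult heart. The enzymes of fatty acid oxidation themselves had a median of -0.16, with 1 of 18 higher (Hadha) and 2 lower (Hadh, Cpt2) at that threshold. In every setting 1 of them was above 0 and 9 below.

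Glucocorticoid-responsive genes had a median of 0.24, with 6 of 15 higher and 0 lower at an unadjusted p under 0.05, and 8 above 0 in every setting. The median was largest in adult heart, at 0.54, beside 0.16 in P14 heart and 0.19 in the tibialis anterior. After Cdkn1a and Ddit4 came Fkbp5, a chaperone of the glucocorticoid receptor (0.75, SE 0.15, adjusted p = 0.32), and Lcn2, an iron-binding secreted protein (0.69, SE 0.16, adjusted p = 0.39). Other classical responders were close to 0, among them Sgk1 at -0.12, Klf9 at -0.01, Dusp1 at 0.00 and Tsc22d3 at 0.12.

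Genes of the oxidative stress response had a median of 0.26, with 6 of 14 higher and 0 lower at an unadjusted p under 0.05. They were led by catalase (Cat, 0.45, SE 0.12, adjusted p = 0.45), and Gpx1 and Mgst1, which reduce peroxides, stood at 0.42 and 0.66. By setting, the median of this list was 0.28 in P14 heart and 0.39 in adult heart, but 0.05 in the tibialis anterior. The 26 proteasome subunit genes tested had a median of 0.15, with 15 above 0 in every setting and 0 below 0 in every setting. At an unadjusted p under 0.05, 5 were higher and 0 lower, such as Psmb3 (0.39, SE 0.13) and Psmb6 (0.34, SE 0.11), each at an adjusted p of 0.49 or 0.50. The 69 oxidative phosphorylation genes had a median of 0.13, which was 0.11 in P14 heart, 0.35 in adult heart and -0.07 in the tibialis anterior, and 3 of 69 were higher at that threshold. Glycolysis and glycogen genes had a median of -0.11, with 3 of 18 lower and 0 higher (Gbe1, Pkm and Hk1).

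**Figure D3:**
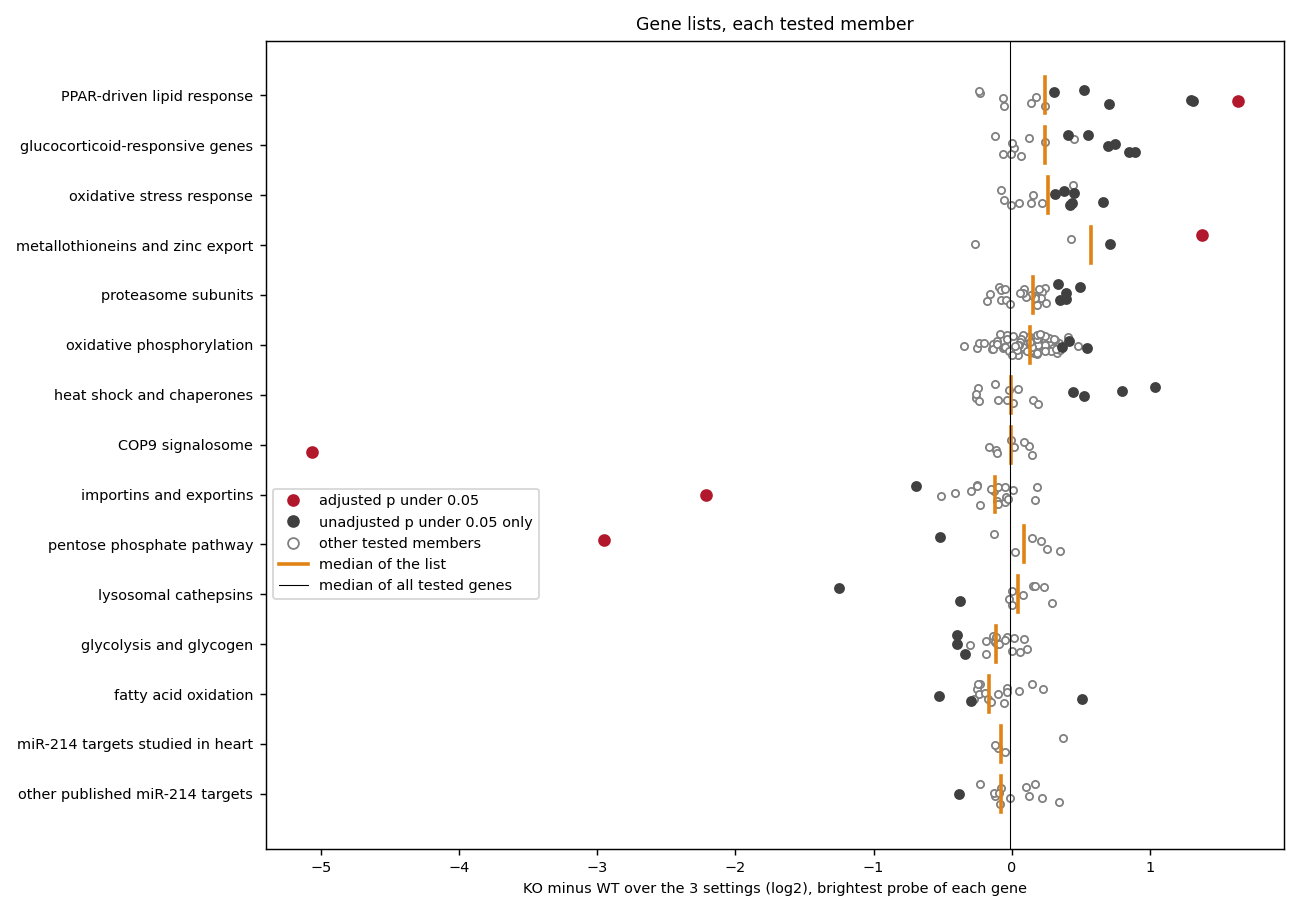
KO minus WT difference over the 3 settings (horizontal axis, log2) of each tested member of 15 gene lists, read by the brightest probe of a gene. Red points passed an adjusted p under 0.05, dark points an unadjusted p under 0.05 only, open points neither, and the orange bar is the list median beside the black line at the median of all tested genes, -0.01. Single red points stand far from the rest of their lists (Cops8 at -5.06), while the PPAR, glucocorticoid and oxidative stress lists have dark points on the right of 0 only.

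The known miR-214 targets of the heart had small differences, and none was called. Slc8a1, the sodium-calcium exchanger, stood at 10.96, 11.48 and 7.91 in KO and 10.89, 11.54 and 8.23 in WT (-0.10, SE 0.13, adjusted p = 0.80). Its second, faint probe gave -0.22 (SE 0.16). Bcl2l11, which encodes the cell death protein Bim, read 7.71, 8.26 and 5.79 in KO and 7.26, 7.51 and 5.89 in WT (0.37, SE 0.19, adjusted p = 0.54), above WT in both hearts and just below it in the tibialis anterior. Its second probe gave 0.53 (SE 0.17, adjusted p = 0.49), with both tibialis anterior values below detection. Camk2d, the cardiac calcium/calmodulin kinase gene, was at -0.12 (SE 0.16, adjusted p = 0.81), with 0.07, -0.54 and 0.11 in the 3 settings. Its other tested probes gave -0.27 to 0.26 over the settings, and none was called. Ppif, the gene of cyclophilin D, was at -0.05 (SE 0.14, adjusted p = 0.91). Of 13 other published miR-214 targets tested, 0 were called, and 1, Ctnnb1, was lower at an unadjusted p under 0.05 (-0.38, SE 0.13, adjusted p = 0.50). At this precision, with a median SE of 0.16 over all tested probes, a change of that size could not be called.

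How far the settings share a difference can be described over all tested probes. The 2 heart pairs had differences that correlated across probes with r = 0.37 (rho = 0.40), the adult heart and tibialis anterior pairs with r = 0.16 (rho = 0.07), and the P14 heart and tibialis anterior pairs with r = -0.02 (rho = -0.06). These are descriptions across 18585 probes, which are not independent replicates, and the array names of all pairs share 1 number. At least 2-fold in 1 setting alone, with the other settings under 1.5-fold, were 422 probes (2.27%), while 68 probes (0.366%) were past 2-fold in the same direction in 2 or 3 settings. Of the single-setting probes, 139 were higher and 35 lower in the tibialis anterior, 117 higher and 42 lower in adult heart, and 24 higher and 65 lower in P14 heart. Adult heart and tibialis anterior shared 19 higher and 8 lower probes past 2-fold that were under 1.5-fold in P14 heart. The 2 hearts shared 5 higher and 5 lower that were under 1.5-fold in the tibialis anterior. P14 heart and tibialis anterior shared 3 higher and 0 lower that were under 1.5-fold in adult heart. In opposite directions past 2-fold, with the remaining setting under 1.5-fold, were 4, 6 and 9 probes of these pairs in the same order. The joint differences were thus few beside those of single settings.

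**Figure D4:**
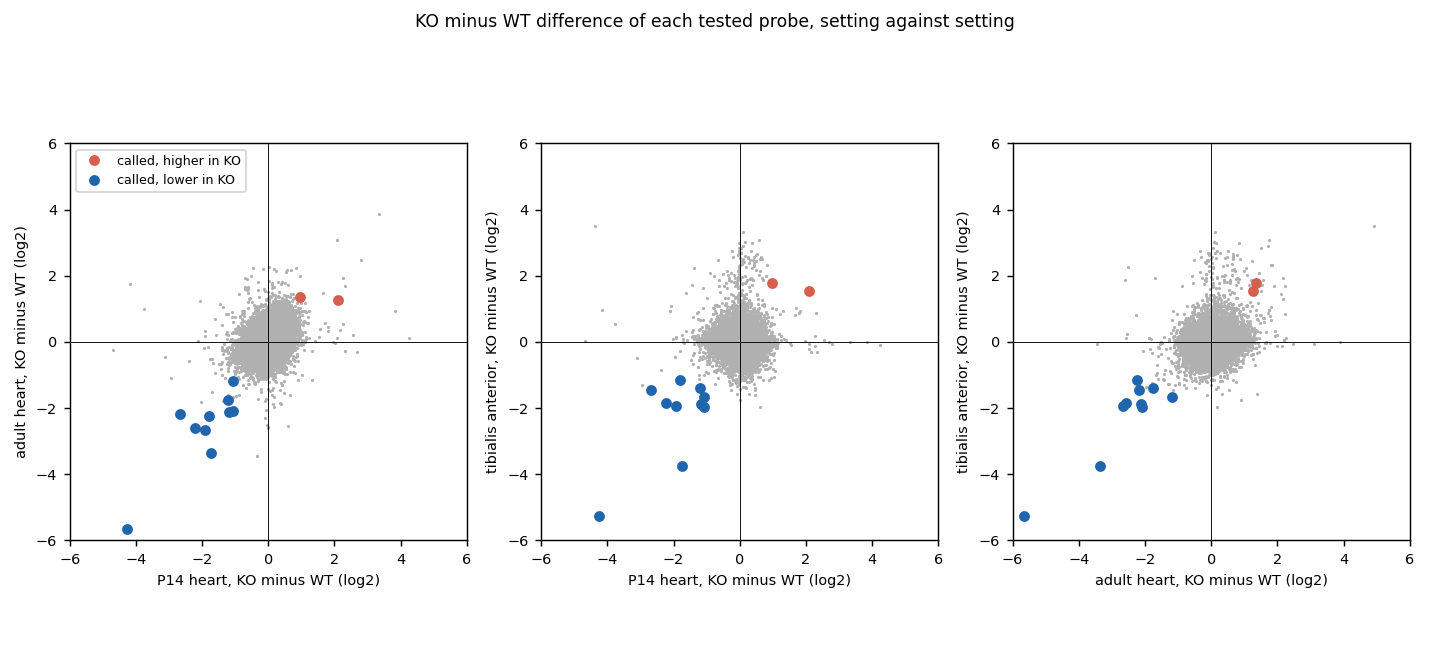
KO minus WT difference (log2) of each of the 18585 tested probes in 1 setting against another, in 3 panels, with called lower probes in blue, called higher probes in red and the rest in grey. The blue points lie in the lower left corner of every panel, the farthest being Cops8 at -4.27, -5.65 and -5.27, and most grey points far from 0 lie along 1 axis.

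The fit also asked where the difference in the tibialis anterior departs from the mean difference of the hearts. With 1 residual degree of freedom, 43 probes (0.231%) passed an adjusted p under 0.05, 38 (0.204%) above 0 and 5 (0.0269%) below, and 1847 (9.94%) had an unadjusted p under 0.05. Of the 43, 20 belong to lists of cell type markers, 13 of them to liver, 4 to fast muscle fibres, 2 to white adipocytes and 1 to slow fibres. The liver list is not complete. Probes of relatives of its members, such as Mup2, Mup6, Apoc4, Serpina1b and Serpina1c, are among the 43 but outside the list. With all marker genes left out of the test, 6 probes were called.

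Ankrd1 encodes a stretch-responsive titin-binding protein of the sarcomere. A probe of it read 11.10 in KO and 8.80 in WT tibialis anterior, against 13.15 and 13.43 in KO hearts and 13.16 and 13.50 in WT hearts. The tibialis anterior minus heart difference was 2.35 (SE 0.24, adjusted p = 0.023), and a second probe gave 3.07 (SE 0.24, adjusted p = 0.010). Rcan1, an inhibitor of calcineurin, had KO minus WT differences of 1.997 in the tibialis anterior and of -0.78 and -0.58 in the hearts (2.68, SE 0.28, adjusted p = 0.023), but its other, brighter probe gave 0.81 and was not called. Both Mustn1 probes departed as well, at 1.75 and 1.91.

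The liver genes Apoa2 (3.21, SE 0.31) and Mup3 (2.89, SE 0.31), and Azgp1 (2.83, SE 0.31), a secreted glycoprotein of liver and fat, each at an adjusted p of 0.023, were detected only in the tibialis anterior by these probes. Apoa2 read 10.72 in the KO and 7.42 in the WT tibialis anterior, and 4.20 to 4.66 on the heart arrays. The summed intensity of 23 liver markers was 13600 on the KO and 2045 on the WT tibialis anterior array, with 20 and 13 of them detected. It was 1326 in KO and 905 in WT adult heart, and 625 in KO and 553 in WT P14 heart, with 3 to 6 detected. Of 15 liver genes tested, 8 were above 0 and 0 below 0 in every setting, beside 14.6% and 18% of all tested genes. The sum was thus higher in KO in every setting, and most of all in the tibialis anterior. The part of liver markers in the other differences of these pairs was not tested. Leaving out the marker genes of every list, 15 probes were called for the shared difference, 12 of them the probes named above.

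Fast-fibre genes departed in the other direction. Atp2a1, the calcium pump of fast fibres, read 14.99 in both the KO and the WT tibialis anterior, where quantile normalization gave it the same value, against 10.22 and 9.39 in KO hearts and 6.88 and 5.51 in WT hearts (-3.61, SE 0.28, adjusted p = 0.010). The fast myosin light chain gene Mylpf had -2.70 (SE 0.26, adjusted p = 0.023) and -1.91 by 2 probes, and the fast troponin gene Tnni2 had -2.64 (SE 0.38, adjusted p = 0.049). The 16 fast-fibre markers together summed to 6867 in P14 KO heart and 2269 in P14 WT heart, but to 3252 in adult KO heart and 5395 in adult WT heart, so the whole list did not go one way in the hearts. In the tibialis anterior the same sum was 280900 in KO and 290000 in WT, and whether the heart samples held other muscle was not tested. Ybx2, the gene of a germ cell RNA-binding protein, read 4.84 in the KO and 6.81 in the WT tibialis anterior by its called probe (-2.36, SE 0.33, adjusted p = 0.043). Its second, brighter probe read 7.15, 7.61 and 7.57 in KO and 6.97, 8.11 and 8.65 in WT, and was not called (-0.92, SE 0.34, adjusted p = 0.46). Chac1, an amino acid stress gene, followed at -1.79 (SE 0.27, adjusted p = 0.064) and was not called.

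**Figure D5:**
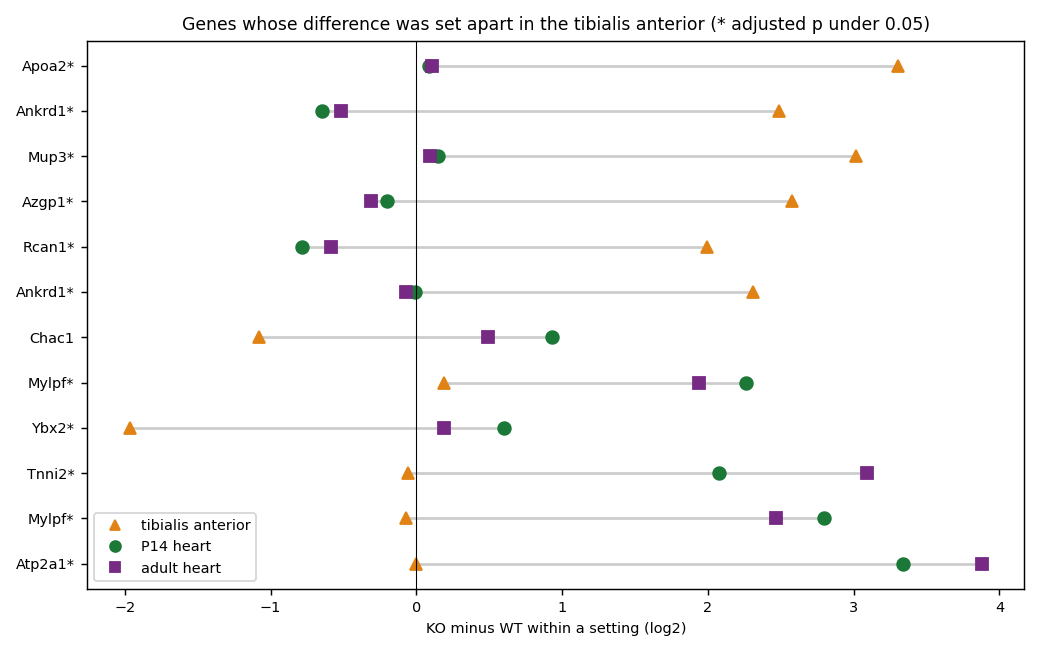
KO minus WT difference within each setting (horizontal axis, log2) for the 12 probes with 1 gene symbol and the smallest p for tibialis anterior minus hearts, 6 per direction, with triangles for tibialis anterior, circles for P14 heart and squares for adult heart. An asterisk marks an adjusted p under 0.05. The triangle of a gene lies apart from its circle and square, as for Atp2a1, with the tibialis anterior at 0.00 and the hearts at 3.33 and 3.88.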

How the data were processed

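Illumina bead arrays were read with 1 dye, and the deposited scanner file gives each probe, per its file headers, a mean bead intensity, a bead standard error, a bead count and a detection p-value, with no stated normalization. The authors also deposited processed intensities, which match quantile normalization of the raw signals within 0.343%, with software not given in the sources used. Columns were matched through the labels, and 0 columns were left over. Precision is limited by 1 array per group.

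Background was corrected with normexp (offset 16) from the detection p-values, and values were quantile-normalized and put on the log2 scale (limma 3.58.1, R 4.3.3). limma (lmFit, eBayes with trend) was fitted to setting and genotype over 18585 probes with 2 residual degrees of freedom, and every adjusted p is Benjamini-Hochberg over all of them. A second fit added genotype by tissue, with 1 residual degree of freedom. A bound divides the mean of the detected group by the mean of the other group after each of its values was raised to the weakest detected signal of its array. Symbols come from the platform annotation, which gives 1 symbol for 34885 probes. Chromosomes come from a GRCm38.p6 gene table, and gene order from the coordinates in it.

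On simulated data the genotype fit held its false share near the chosen level when the spread of the probes followed the distribution that limma estimated. The simulated noise was normal and independent between probes, as the model itself assumes. The check therefore cannot show whether the real data meet that model. When each spread was set to its shrunk estimate, the false share was above that level. For the tissue fit it was also above it in most runs, so the tissue calls, and calls near the threshold, are less certain than their adjusted p. The first form of this check failed and was widened to the 2 spread models; the fit was not changed.

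Named, among probes with 1 gene symbol, were all called probes, the next by p up to 20 in all, the 6 largest per direction past 2-fold or 1.5-fold in every setting, 6 per direction of the tissue fit, the known heart targets and host locus, and the leading members of lists. Members and lists were chosen with earlier results of these data known. List members near 0 (Sgk1, Klf9, Dusp1, Tsc22d3, Cops2, Cops5, Cops6, Slc30a1) were picked after their values were seen. Alternatives were background, offset, centring, deposited values, filters, 1 probe per gene, no trend, no block and leaving out each pair.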

Additional observations from a re-analysis of the deposited data

Results flagged for a closer look

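The KO minus WT difference was set apart in the tibialis anterior, against the hearts, for 43 probes by the term for tissue in the limma fit, and the probes named among them follow. Above 0, in tibialis anterior minus hearts on the log2 scale, were Apoa2 at 3.21, Ankrd1 at 3.07 and 2.35 by 2 probes, Mup3 at 2.89, Azgp1 at 2.83, Rcan1 at 2.68 and Mustn1 at 1.75. Below 0 were Atp2a1 at -3.61, Mylpf at -2.70 and -1.91 by 2 probes, Tnni2 at -2.64 and Ybx2 at -2.36. All of them rest on 1 tibialis anterior pair and 2 heart pairs. No group holds 4 arrays, so no array could be tested for standing apart from its group.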

How the results depend on the processing

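The main counts are 10 called lower and 2 higher. Of the settings tried, the lower count fell to 4 with a normexp offset of 50, 6 with probes detected on all 6 arrays, 5 with 1 probe per gene, 3 without the trend, and 0 without the replicate block or without chromosome 1 probes; leaving out a pair gave 3 to 26. The higher count was 0 with offset 50, without the trend, without the replicate block and without chromosome 1 probes, 14 with median centring (15 lower beside it, 12 of these on chromosome 1) and 4 without a detection filter; leaving out a pair gave 2 to 32. Without the replicate block, limma called 0 probes, and 102 had an unadjusted p under 0.05, since setting then counts as noise. Cops8 was called in 11 of 12 alternatives, Ipo9 and Thap4 in 12 of 13, Angptl4 in 10 of 13, Insig2 in 9 of 12, Rgl1 in 9 of 13, Mt1 in 8 of 13, Mcm6 in 7 of 11, Rpe in 6 of 12, Rab7b in 6 of 11, Phlda3 in 5 of 12 and Gin1 in 4 of 12, and none of the 12 changed sign. Without the P14 heart pair, 13 of 26 lower calls lay on chromosome 1.

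The count 2-fold lower in every setting was 4 with no background correction, offset 50 or the deposited values, 7 with all 6 arrays or 1 probe per gene, and 13 to 22 without a pair; 2-fold higher was 2 with median centring and 4 to 31 without a pair. The 43 tissue calls became 68 with no background correction or the deposited values, 65 with offset 50, 77 with median centring, 198 with no filter, 23 and 14 with detection on at least 3 and all 6 arrays, and 6 without marker genes; leaving out a pair left no residual degree of freedom, so there is no such value. The genotype difference changed sign for 9 probes, none of them called for genotype. Ppif turned to 0.0525 with median centring. Leaving out a pair gave -0.171 to 0.113 for Ppif, -0.295 to 0.711 for Chac1 (-0.0757 without adult heart), -0.236 to 0.0880 for Camk2d and -0.186 to 0.0108 for Slc8a1. Without the tibialis anterior pair the sign turned for Ankrd1, which ranged from -0.0404 to 1.15 and from -0.582 to 0.987 by 2 probes, for Azgp1 (-0.257 to 1.19), Rcan1 (-0.683 to 0.706) and Ybx2 (-0.889 to 0.394). The cause was not tested. Signals near background limit Cops8, Rpe, Mcm6, Rab7b and Gin1 to bounds.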
